A study of Ambystoma mexicanum with 6 samples.

Results

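The axolotl (Ambystoma mexicanum) is a salamander that can regrow its retina, the layered neural tissue at the back of the eye, after it has been cut out. In newts, which are also salamanders, a lost retina is rebuilt from cells of the pigment epithelium behind it, which re-enter the cell cycle and give rise to new neurons and glia. The 93 genes described here had far higher levels in the libraries of regenerating retina than in those of uninjured retina. They were selected on the deposited read estimates of both groups, out of 99088 genes. A gene was taken when its mean over the regenerating pools was at least 10 CPM (reads per 1000000 reads of the library), its mean over the uninjured pools was at most 0.781% of that, and its highest regenerating pool was at most 4 times its lowest. The contrast between the groups is therefore what defines these genes, and it is given as a description. Where a test of that contrast is printed below, the count of genes called is not read as a finding.

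Retinas of the left eyes of 12 adult leucistic (pale-skinned) axolotls were removed and pooled by 4 into 3 uninjured samples. After 27 days of regrowth the new retinas of those animals were collected and pooled into 3 regenerating samples, with each numbered pool holding the same animals in both groups. The files give genes only as identifiers beginning with AMEX60DD, and 0 of the 99088 matched the RefSeq gene table of the species. The genes are therefore ranked from 1 to 93 by their mean regenerating CPM, 2 are given by identifier, no gene is assigned a name or a role, and the tissue label could not be checked against retinal marker genes. The sources used here do not place the genes on chromosomes.

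Libraries held 29.4 to 37.4 M (1 M being 1000000) estimated reads. Uninjured pool 1 stood apart from the other uninjured pools: over genes, the squared difference between pools 2 and 3 was 11.0 times what read sampling gives, against 151 and 125 times between pool 1 and each of them. In the regenerating group these values were 28.6 to 66.2. With uninjured pool 1 left out, the selection rule took 142 genes, among them 89 of the 93.

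The 93 genes were 0.0939% of all genes and 0.840% of the 11072 that met the limits on regenerating level and evenness. Their regenerating means ran from 10.3 to 3305 CPM, with a median of 63.4 CPM, against 29.2 CPM among the other 10979 genes that met those limits. The regenerating level is part of the ratio that chose the 93, so this difference is not independent of the rule. Among the other genes the median was 28.1 CPM for group means within 2-fold and 46.7 CPM from 32 times up to the limit. The uninjured means of the 93 ran from 0.0108 to 18.7 CPM, with a median of 0.237 CPM. The libraries are of whole tissue, so a gene's level cannot tell more cells of a type from more RNA per cell. Of the 93, 15 lay between 10 and 20 CPM, 23 between 20 and 50, 32 between 50 and 200, 20 between 200 and 1000, and 3 above 1000 CPM. In the order of all genes by regenerating level, 3 were among the first 100 and 28 among the first 1000. No member ranked above place 8390 in the uninjured pools.

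**Figure D1:**
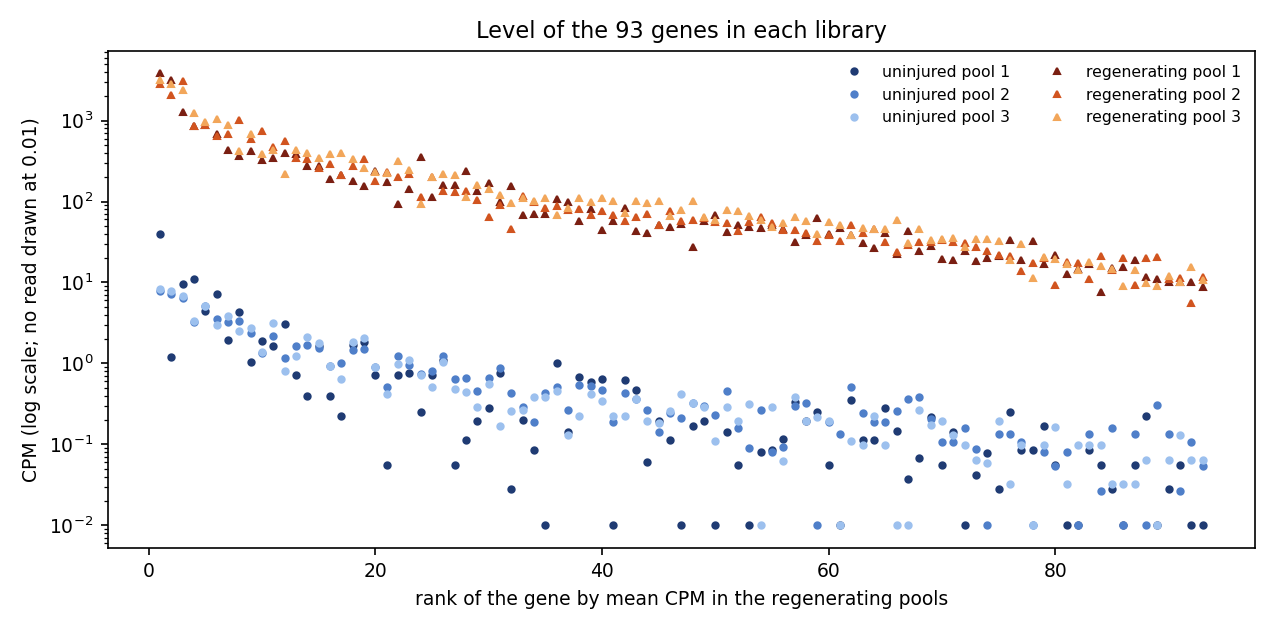
CPM of each of the 93 genes (log axis) in the 3 uninjured pools (blue circles) and the 3 regenerating pools (red and orange triangles), ordered by rank in regenerating mean; a pool with no read is drawn at 0.01. Every regenerating point lies above every uninjured point of the same gene, which the limits of the selection on ratio and evenness together require. Among genes with a regenerating mean above 200 CPM, uninjured pool 1 scatters more widely than pools 2 and 3.

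The gene with the highest regenerating level was AMEX60DD055165, about 3784 bases long. It measured 3839, 2859 and 3216 CPM in regenerating pools 1, 2 and 3, and 39.8, 7.83 and 8.37 CPM in the uninjured pools, so that uninjured pool 1 was above the sum of the other uninjured pools. Its group means were 3305 ± 496 and 18.7 ± 18.3 CPM (SD, n = 3 each), a ratio of 177, or 408 when uninjured pool 1 is left out. It stood at place 15 among all genes of the regenerating retina.

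The gene ranked 2 had the opposite pattern in the uninjured pools. Its values there were 1.204, 7.16 and 7.82 CPM, lowest in pool 1, and in the regenerating pools 3211, 2050 and 2845 CPM. The ratio of its means was 501, or 361 without uninjured pool 1.

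At rank 3, AMEX60DD043905 (chosen for naming after its values were seen) measured 1264, 3059 and 2375 CPM in the regenerating pools and 9.45, 6.35 and 6.75 CPM in the uninjured pools. Pool 2 was highest and pool 1 lowest of its regenerating values, a 2.42-fold range. Being only about 1562 bases long, it had the highest level per length of all 93, at 2680 TPM (transcript abundance, which allows for gene length and library size), ahead of AMEX60DD055165 at 1595 TPM.

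Evenness differed widely among the next genes. The gene ranked 5 was one of the most even, at 891, 882 and 966 CPM in the regenerating pools and 4.43, 5.16 and 5.10 CPM in the uninjured ones. The pools lay close together within both groups, and the ratio of its means was 187. By contrast, the gene ranked 8 measured 363, 1004 and 418 CPM in the regenerating pools, with pool 2 far above the others, and 4.26, 3.29 and 2.50 CPM in the uninjured pools. Rank 7 was lowest in pool 1 of both groups, at 430, 691 and 884 CPM in the regenerating and 1.96, 3.29 and 3.88 CPM in the uninjured pools. For rank 9 the regenerating values were 427, 591 and 674 CPM and the uninjured ones 1.04, 2.35 and 2.75 CPM, again lowest in pool 1 of each group.

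Together the 93 genes took 1.93%, 2.09% and 2.27% of the reads of regenerating pools 1, 2 and 3, or 2.10% ± 0.173 (SD, n = 3). In the uninjured pools they took 0.0109%, 0.00793% and 0.00776%, or 0.00886% ± 0.00177 (SD, n = 3). Pool 1 was the highest of the uninjured pools, and the gene ranked 1 alone gave 36.5% of its sum. Counted per length, the genes made up 1.53% ± 0.180 of the TPM of the regenerating pools (SD, n = 3). These shares follow from the selection.

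A few genes carried most of these reads. The 3 highest held 39.5% ± 3.22 of the reads of the 93 in the regenerating pools and the 10 highest held 63.3% ± 1.29 (SD, n = 3 each). Of the summed level, 50% lay in 6 genes and 90% in 39, while the 50 lowest together held 8.30%.

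The ratio of the group means had a median of 246, and for 42 genes the uninjured mean was at most 0.391% of the regenerating mean. Without uninjured pool 1 the median over the same genes was 236. The ratio rose by over 1.5 times for 7 of them (ranks 1, 4, 12, 74, 76, 78 and 88). Rank 78 then had no uninjured read. Leaving out 1 of 3 pools cannot lower a ratio of means by more than 1.5 times, so only a rise could pass that limit. Many ratios were based on few uninjured reads. The median sum over the 3 uninjured libraries was 24.96 estimated reads, and 3 genes had 3 reads or fewer. Rank 86 had 1 uninjured read against 1401 regenerating reads, a pooled ratio of 1525 (95% exact interval 273 to 60286, counting error only). Ranks 78 and 82 had 3 uninjured reads each, with pooled ratios of 690 (236 to 3348) and 539 (184 to 2616). Among the other 90 genes the largest ratio was 989, at rank 61, from 5 reads that all lay in uninjured pool 2. Regenerating levels rested on far more data, with at least 178 reads for every member in every regenerating library.

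In the edgeR quasi-likelihood test over 37844 genes, all 93 were tested and all 93 were called higher (adjusted p under 0.05), against 20.4% of all genes tested. The same contrast chose them, so nothing is read from that count. Their fitted log2 changes ran from 7.12 to 10.25 with a median of 8.06. An approximate SE, the absolute change divided by the square root of the test's F value, had a median of 0.53 (0.22 to 1.18). Over all genes tested, the median of that SE was 0.35.

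The gene with the smallest ratio among the 93 stood at 132 and the nearest gene below the limit at 127. By level, the nearest genes on either side of the minimum had 10.3 and 9.67 CPM, and by evenness the nearest had ranges of 3.83-fold and 4.01-fold. The evenness limit left out 12 genes that met the other conditions, with ranges of up to 14.7-fold. Ratios were dense near the limit: 11 members had a ratio of up to 1.2 times it, and 17 genes of sufficient level and evenness fell short of it by up to the same factor.

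No member was without reads in the uninjured retina as a whole: 0 of 93 had no read in all 3 pools. For the 23 genes above 200 CPM, the level in uninjured pool 2 was a median of 0.425% of the regenerating mean (range 0.237% to 0.607%) and in pool 3 a median of 0.417% (range 0.199% to 0.825%). The rule itself allows a mean share of at most 0.781%, so the upper end of the shares is set by the selection. Pools 2 and 3 lay within 1.5-fold of each other for 22 of these 23 genes. Whether reads of one library had been assigned to another was not tested. Where that happened, the uninjured levels would be too high and the ratios too low.

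Among lower genes the medians were similar and the spread was wider. For the 32 members between 50 and 200 CPM the share had a median of 0.422% in pool 2 (range 0.156% to 0.849%) and 0.358% in pool 3 (range 0% to 0.663%). For the 38 members below 50 CPM the medians were 0.508% (range 0% to 2.24%) and 0.442% (range 0% to 1.22%). Over the 23 highest genes the share was far more variable in uninjured pool 1. It had a median of 0.385% and a range of 0.0265% to 1.21% there. Below 50 CPM the range in pool 1 was 0% to 1.62%, narrower than in pool 2. Pool 1 lay within 1.5-fold of the mean of pools 2 and 3 for 9 of the 23, at least 2 times above it for 4 and at or below 1/2 of it for 6. Over all 93 genes, pool 1 was the lowest uninjured pool for 46 and the highest for 24. No read was found for 13 of the 93 in pool 1, for 6 in pool 2 and for 6 in pool 3. The corresponding shares of other genes are not given here, so these counts are not read as particular to the 93.

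**Figure D2:**
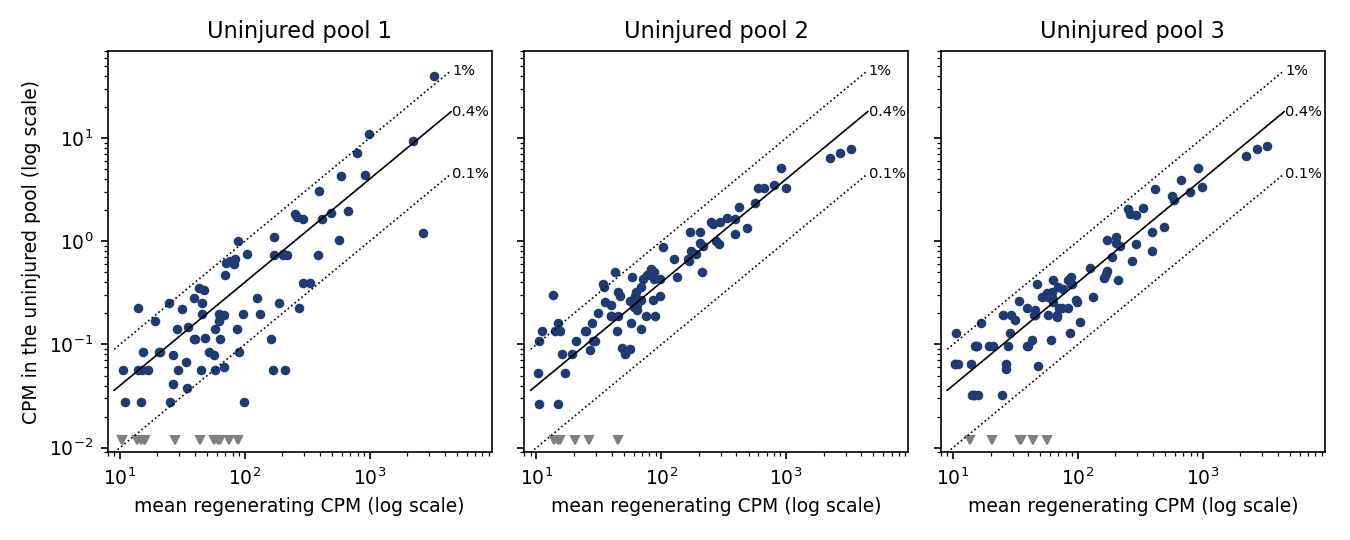
CPM of each of the 93 genes in uninjured pools 1, 2 and 3 (one panel each, log axis) against its mean CPM in the regenerating pools (log axis); the lines mark 1%, 0.4% and 0.1% of the regenerating level, and grey triangles at the bottom are genes with no read in that pool. Above 200 CPM, pools 2 and 3 lie between 0.199% and 0.825% of the regenerating level, whereas pool 1 runs from 0.0265% to 1.21%. Below 50 CPM all pools scatter and some genes have no read. Between 50 and 200 CPM, genes with no read occur in pools 1 and 3.

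When the groups were exchanged in the rule, 251 genes were lower in the regenerating pools by at least the same factor, and their regenerating level was a median of 0.447% of the uninjured one (10th to 90th percentile 0.205% to 0.708%, range 0% to 0.779%). For the 93 genes the corresponding median over the mean of the uninjured pools was 0.407% (10th to 90th percentile 0.205% to 0.666%, range 0.0727% to 0.760%). Both ranges are bounded above by the rule. From which source the reads in the low group came was not tested.

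The 93 genes were less even among the regenerating pools than other genes of sufficient level and evenness. The median range, highest over lowest pool, was 1.63-fold against 1.28-fold, and the SD was a median of 25.6% of the mean against 12.8%. A range of at most 1.2-fold was found for 7 of 93 (7.53%) against 36.1% of the others, and a range of at most 2-fold for 66 of 93 (71.0%) against 92.0%. By level, the median range of the members was 1.59-fold at 10 to 20 CPM, 1.74-fold at 20 to 50, 1.63-fold at 50 to 200 and 1.59-fold above 200 CPM, against 1.32-fold, 1.25-fold, 1.26-fold and 1.31-fold for the others.

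A wider range was also seen in other genes that were higher in the regenerating pools. Its median was 1.23-fold for genes whose group means lay within 2-fold of each other, 1.38-fold for genes 2 to 8 times higher, 1.52-fold at 8 to 32 times and 1.64-fold from 32 times up to the limit of the rule, next to 1.63-fold for the 93. For genes more than 2-fold lower it was 1.29-fold. These values are cut off at 4-fold by the evenness limit.

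The pools did not share the high values equally. Regenerating pool 3 was highest for 54 of the 93 genes (58.1%), pool 2 for 21 and pool 1 for 18. Among the other genes pool 3 was highest for 33.4%, pool 2 for 26.2% and pool 1 for 40.4%. Pool 1 was the lowest for 48 of the 93 (51.6%) and pool 3 for 13 (14.0%), against 43.6% and 37.4% of the other genes. Among genes with a range of at least 1.5-fold, pool 3 was highest for 61.4% of 57 members and 41.9% of 2814 others. Relative to a gene's own mean, the median level of the 93 was 0.864 in pool 1, 0.949 in pool 2 and 1.16 in pool 3, whereas for the others all 3 medians lay between 0.991 and 1.00. The share highest in pool 3 was 28.4% for genes within 2-fold, 38.3%, 42.6% and 53.7% in the next steps, and 43.5% for genes more than 2-fold lower. Whether the pools differed in the progress of regrowth, in the cells collected or in handling was not tested.

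**Figure D3:**
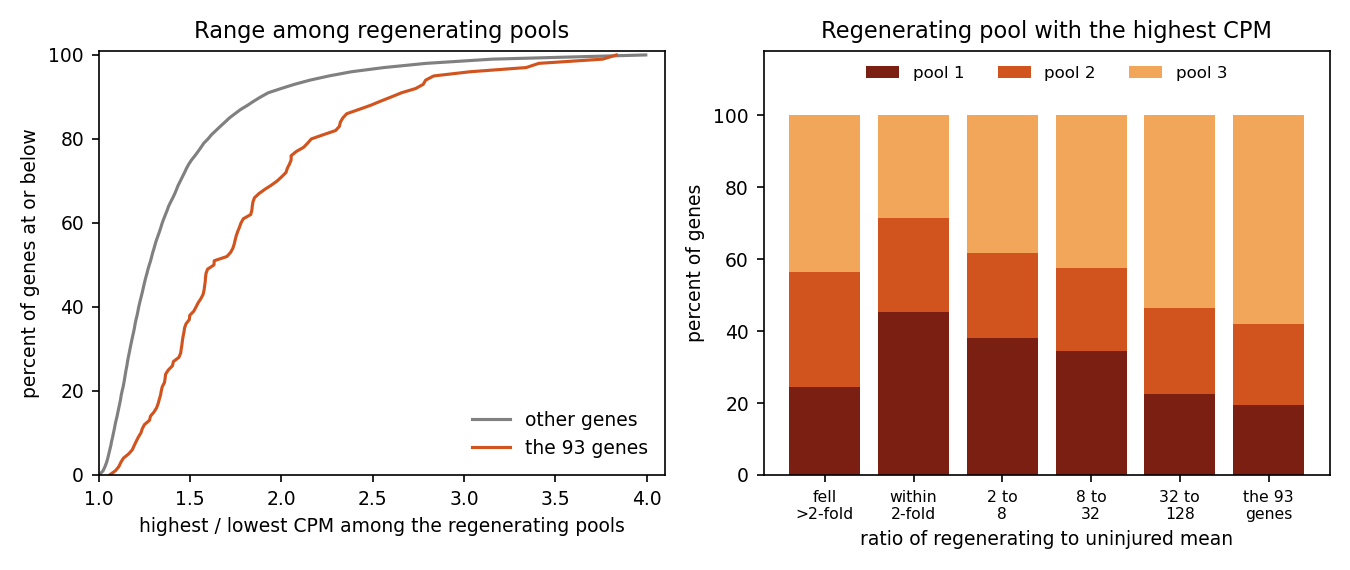
Left, the percentage of genes whose highest regenerating pool is at most the given multiple of the lowest, for the 93 genes (orange) and the other 10979 genes of sufficient level and evenness (grey). Right, the percentage of genes with their highest CPM in regenerating pool 1, 2 or 3, by ratio of regenerating to uninjured mean; pool 3 goes from 28.4% within 2-fold to 58.1% of the 93.

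Rank 24 was the least even of all, at 358, 115 and 93.3 CPM in the regenerating pools, highest in pool 1, against 0.252, 0.748 and 0.711 CPM in the uninjured pools, lowest in pool 1. Rank 48 had nearly as wide a range with pool 1 lowest, at 27.1, 59.0 and 102 CPM, a 3.75-fold range. The most even was rank 85, at 15.2, 14.4 and 14.9 CPM, although its uninjured values came from 1, 6 and 1 reads.

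Of the 91 members whose identifiers carry a plain running number, 30 had another member within 10 numbers, in 11 runs. No such share for other genes is given here, so the count is not read as unusual. Whether neighbouring numbers are neighbours on a chromosome is not stated. In 19 of these 30 genes some regenerating estimate was more than 0.005 reads from a whole number. This occurs where reads are divided between genes, so values of similar copies are uncertain. Estimates were whole in every regenerating library for 61.3% of all 93 genes and 60.6% of the other genes of sufficient level and evenness.

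The largest run was 6 genes with consecutive numbers, beginning with AMEX60DD043905 and made up of ranks 3, 66, 45, 8, 33 and 10. All 6 had estimates that were not whole. They summed to 2098, 5008 and 3449 CPM in the regenerating pools and to 16.1, 11.7 and 11.1 CPM in the uninjured pools. They held 16.8% of the summed CPM of the 93 genes and, being short at 503 to 1562 bases, 36.5% of the summed TPM.

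Within that run the genes differed in which pool was highest. Ranks 3, 8, 33 and 10 were highest in pool 2, though rank 33 was nearly as high in pool 3, at 67.5, 116 and 109 CPM. Ranks 66 and 45, which lie next to each other in number, were highest in pool 3 instead, at 59.2 CPM against 22.6 and 23.6 CPM for rank 66 and at 102 CPM against 51.4 and 51.7 CPM for rank 45. All 6 were lowest in pool 1. The numbers on either side were no members: the one before measured 16.3, 5.96 and 9.09 CPM in the regenerating pools and 25.3, 0.187 and 0.129 CPM in the uninjured pools, and the one after had no read in any library.

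Ranks 4 and 6 were the highest pair, with 1 number between them, and their estimates in the regenerating pools were whole to within 0.005 reads. Rank 4 measured 866, 864 and 1252 CPM in the regenerating pools and 11.0, 3.29 and 3.33 CPM in the uninjured ones. Rank 6 measured 686, 654 and 1043 CPM and 7.14, 3.50 and 3.00 CPM. Both were highest in regenerating pool 3 and in uninjured pool 1, and their lengths were 4914 and 3926 bases. The gene numbered between them stayed at 3.71, 2.19 and 2.69 CPM in the regenerating pools and thus below the minimum level.

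**Figure D4:**
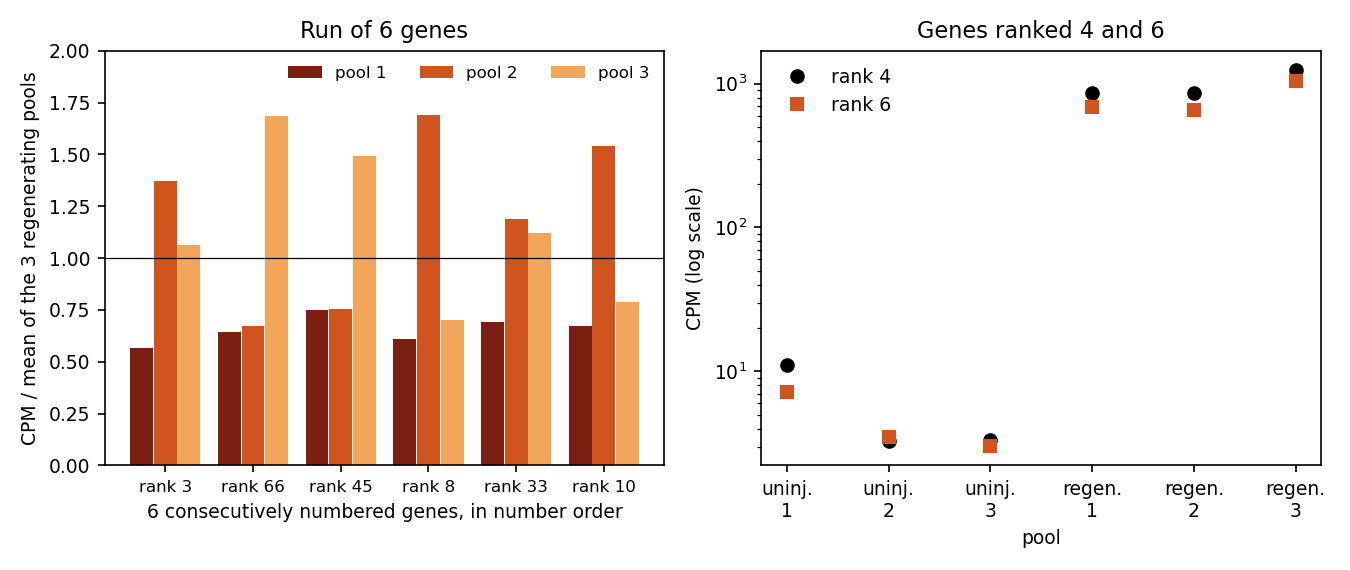
Left, CPM of the 6 consecutively numbered genes in regenerating pools 1, 2 and 3, each divided by the gene's mean over the 3 pools (bars; the line marks the mean). Right, CPM of the genes ranked 4 and 6 in all 6 pools (log axis). Ranks 66 and 45 peak in pool 3 and the other 4 genes of the run in pool 2, while ranks 4 and 6 move together over the pools.

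Other runs were smaller. A run of 4 consecutive numbers held ranks 59, 50, 53 and 78, with regenerating means of 45.3, 60.7, 56.7 and 20.4 CPM, of which ranks 59, 50 and 78 were highest in pool 1 and rank 53 in pool 3. A pair of consecutive numbers, ranks 13 and 22, differed in evenness: rank 13 measured 389, 342 and 438 CPM and rank 22 measured 93.6, 204 and 313 CPM.

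Length was not used by the rule. The 93 genes had a median length of 3288 bases (middle 50% 1962 to 5627), against 3815 bases (2411 to 6127) for the other genes of sufficient level and evenness. Genes under 1000 bases were 8 of 93 (8.60%) against 3.77%, and genes of at least 10000 bases were 7 of 93 (7.53%) against 8.07%. Of those 8 short genes, 3 belonged to the run of 6. A single length in all 6 libraries was listed for 28 of 93 (30.1%) against 23.4%, and 2 of 93 (2.15%) carried identifiers beginning with AMEX60DDU against 4.05%. The other genes differed by ratio of group means. A single length was listed for 21.1% of those within 2-fold, 38.2% at 8 to 32 times and 35.6% from 32 times up to the limit. Their median lengths were 3662, 3782 and 3735 bases in these classes, and 5322 bases for genes more than 2-fold lower. Reads came out whole, to within 0.005 reads, in every regenerating library for 61.3% of the 93 and 60.6% of the others. No test was made of these differences.

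The extremes of length showed how far the scales part. The longest member, rank 16, had about 21664 bases and measured 191, 291 and 390 CPM in the regenerating pools, but on the TPM scale it fell to place 63 of 93, at 27.7 TPM. Next in length was rank 87, with 15551 bases, 14.1 ± 4.85 CPM (SD, n = 3) and the lowest TPM of all, 1.90. The shortest, rank 45 with about 503 bases, had 68.5 ± 29.3 CPM (SD, n = 3) and place 7 by TPM, at 481 TPM. The second shortest, rank 89 with 551 bases, measured 11.1, 20.7 and 8.93 CPM and had uninjured reads only in pool 2.

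**Figure D5:**
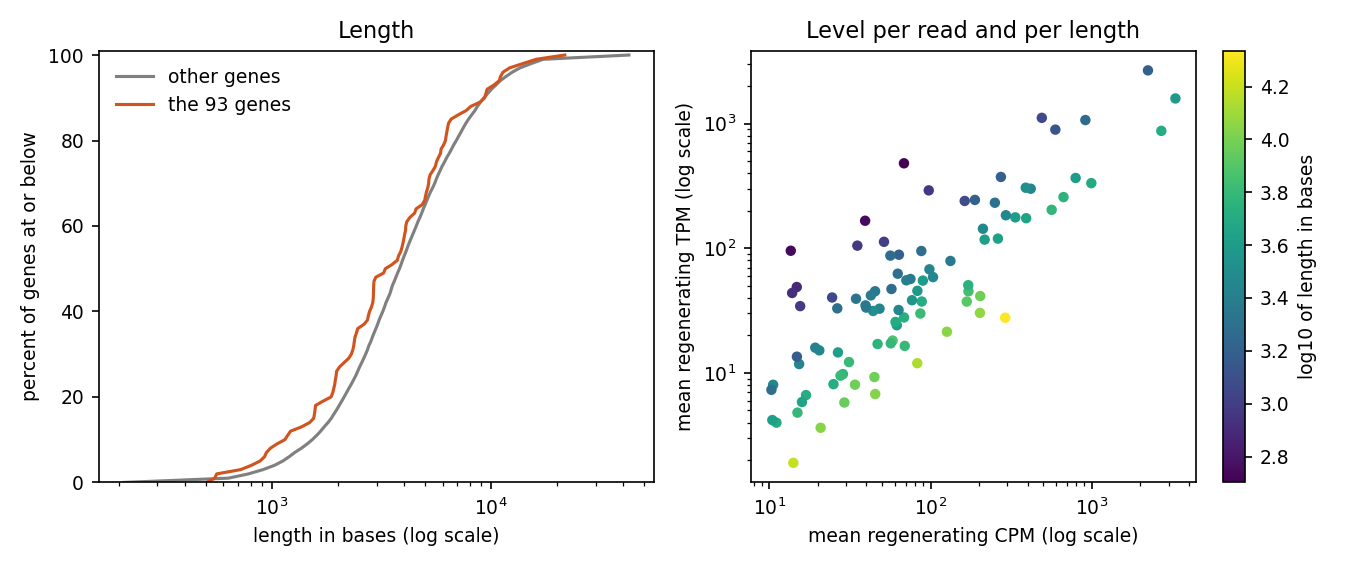
Left, the percentage of genes at or below a given length in bases (log axis), for the 93 genes (orange) and the other 10979 genes (grey). Right, mean regenerating TPM against mean regenerating CPM of each of the 93 genes (log axes), coloured by length; short genes lie above and long genes below the main band, and the medians of length are 3288 and 3815 bases.

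The listed length of a gene with several transcripts is an average weighted by their abundance, so it moves when their mix changes. Among the regenerating pools the median range of that length was 1.02-fold both for the 65 members with several lengths and for the others, and it exceeded 1.1-fold for 15 of 65 (23.1%) against 15.2%. A comparison with the uninjured pools needs reads there, and 4 members had at least 100 reads in every library. In a limma test over 9689 such genes, 7.66% (742 genes) were called as changed in length. That count was 41 with the pools paired by their animals as a replicate block and 79 without uninjured pool 2. In the test over all pools, 0 of the 4 members were called. An unadjusted limma p under 0.05 was found for 1 of the 4, and for 2699 of all 9689 genes tested. With 30 reads as the minimum no member was called either (14 members tested). At that minimum 715 of 12207 genes were called. So few members were tested that nothing is read from the absence of calls among them.

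For rank 5 the length was 1831, 1846 and 1852 bases in the regenerating pools and 1875, 1861 and 1875 bases in the uninjured pools, a difference of -0.02 on the log2 scale (95% interval -0.04 to -0.01, limma adjusted p = 0.106). The difference did not pass after adjustment. AMEX60DD055165 had 3236, 3896 and 4219 bases in the regenerating pools and 4978, 3773 and 3986 bases in the uninjured ones, a difference of -0.16 (95% interval -0.58 to 0.25, limma adjusted p = 0.569). Its length varied more between pools of a group than between the groups. The longest value was in uninjured pool 1, which had its highest level among the uninjured pools. The shortest was in regenerating pool 1, which had its highest level of all pools. For AMEX60DD043905 and rank 4 the differences were -0.02 (-0.06 to 0.03) and -0.04 (-0.15 to 0.08), with limma adjusted p of 0.602 and 0.669. All these intervals and adjusted p come from limma without the pairing of pools.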

How the data were processed

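Per the submitters' processing notes, reads were trimmed with Trimmomatic 0.38 and quantified with Salmon 0.13.1. Strand setting, genome build and annotation: not given in the sources used here. Each deposited library file holds, per the file headers, estimated counts per gene, TPM values and an abundance-weighted gene length. The deposited series table holds a score, namely TPM times the library's total reads in M, within 1% for 100% of values above 1 TPM. It served only as an alternative.

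CPM was computed from the estimated counts. These were rounded and tested over all genes with edgeR 4.0.16 in R 4.3.3 (filterByExpr, TMM, robust quasi-likelihood F-test, Benjamini-Hochberg adjustment). Log2 lengths were tested with limma 3.58.1 for genes with varying length and at least 100 reads in every library. Both tests were tried on simulated data with known answers. The simulated libraries were not paired and none was set apart from the others, so that trial checks the code and not the fit to these data. DESeq2 1.42.0, limma-voom and limma on log2(TPM + 0.5) were alternatives. A floor of 3 reads per library corresponds to 0.0801 to 0.102 CPM.

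The members, lists and tests were chosen with earlier results of these data known. The rule for naming took the gene with the highest regenerating level and, among members with no uninjured read, the highest, which did not exist. Other genes described by rank were ranks 1 to 10, extremes of length and evenness, and those nearest the limits. Ranks 12, 13, 22, 33, 50, 53, 59, 61, 66, 74, 76, 78, 82, 86 and 88 were added after their values were seen. Marker lists could not be applied, since no identifier matched a symbol.

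Pools with the same number share their animals, per the labels. Their deviations from the means of their groups correlated at -0.05 to 0.05 over genes. For pools with different numbers the correlations were -0.10 to 0.04. The pool number was tried as a block. The main edgeR and limma tests, and the intervals from them, did not use the pairing and treated all pools as independent. Each library is a pool, so p-values measure the spread between pools.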

Additional observations from a re-analysis of the deposited data

How the results depend on the processing

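All 93 genes were called higher under each scaling, filter and tool tried, without any 1 library, and with a replicate block that pairs pools by their animals (93). The same contrast chose them, so nothing is read from these counts. Over all genes tested, the number called higher was 6924 of 81644 with no filter on low counts. It was 10009 of 39976 without uninjured pool 1. The number of genes meeting the rule was 172 when the uninjured mean could reach 1.56% of the regenerating one and 42 when it could reach 0.391%. Without 1 library it was 93 to 142, highest without uninjured pool 1. It stayed within 1.5 times of 93 with other minimum levels, other evenness limits, TMM-scaled CPM, TPM and the series table (66 to 112), though by TPM 73 of 92 genes were shared. On the TPM scale the members' share was 1.53%, their median level 41.4 TPM and the part held by the 10 highest 61.4%. The median effective length was 3281 bases. Over all genes, 742 were called changed in length, and 41 with the replicate block. Without 1 library that count was 79 to 677: 79 and 84 without uninjured pools 2 and 3, and 467, 126 and 292 without regenerating pools 1, 2 and 3. Pool 3 was highest for 54 members with TMM and 55 by TPM, settings added after seeing the data. Without uninjured pool 1, also added after seeing the data, the median uninjured share was 0.424%, the median ratio 236 and the ratio of the gene ranked 1 408. Levels below 0.0801 to 0.102 CPM rest on fewer than 3 reads in a library, a limit that was set and not measured. Such levels, among them the uninjured values of rank 86, and the ratios built on them are uncertain. The cause of the shifts between settings was not tested.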
